A study of Mus musculus with 42 samples.

Results

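Acyl-CoA thioesterase (Acot) genes were followed in mouse liver across diet, loss of ChemR23 and treatment with resolvin E1 (RvE1). The genes were taken by name: Acot1, Acot2, Acot3, Acot4, Acot7, Acot8, Acot9, Acot11, Acot12 and Acot13, which are 10 of the 19758 gene names listed in at least 1 of the tables. All 10 were listed in each of the 6 tables and all 10 passed the filter on low values in each, so none was lost before testing. Whole liver RNA was sequenced from 42 male C57BL/6J mice, 7 in each of 6 groups, with 1 library per mouse. The knockout (KO) mice carry a CRISPR/Cas9 knockout of ChemR23, the receptor for RvE1 encoded by Cmklr1, and the wildtype (WT) mice were littermates. WT lean and KO lean mice ate a diet with 10% of its energy from lard, and WT obese and KO obese mice ate one with 60%, both for 15 weeks from 6 weeks of age. These 4 groups were injected with an ethanol and PBS vehicle, while WT obese+RvE1 and KO obese+RvE1 mice ate the high fat diet and were injected with 300 ng of RvE1, in all groups on 4 consecutive days before harvest on day 5. All mice had fasted for at least 4 hours at harvest. The values are normalized counts, that is read pairs per gene divided by a size factor of the library, and each table of 14 mice was normalized on its own.

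Acyl-CoA thioesterases split the thioester bond of a fatty acyl-CoA and release the free fatty acid and coenzyme A, the reverse of what acyl-CoA synthetases do. The type I enzymes share an alpha/beta-hydrolase fold and are encoded side by side in the mouse, and they serve different compartments: Acot1 works in the cytosol, Acot2 in the mitochondrial matrix, and Acot3 and Acot4 in peroxisomes. The type II enzymes share a hot dog fold but little sequence with type I: Acot8 is peroxisomal, Acot9 is mitochondrial, Acot7 and Acot12 are cytosolic, and Acot11 (Them1) and Acot13 (Them2) act on long-chain acyl-CoA at lipid droplets and mitochondria. Several members are known as targets of the fatty acid receptor PPAR alpha, and liver is one of the tissues where the family is most studied.

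By the GENCODE annotation of GRCm38, the genome the authors' mm10 alignments use, the type I genes lie on the forward strand of chromosome 12: Acot2 from 83987861 to 83993873, Acot1 from 84009490 to 84018371, Acot4 from 84038379 to 84048601 and Acot3 from 84052144 to 84060402. The type II genes are spread over the genome. Acot7 (from 152178134 to 152271855, forward strand) and Acot11 (from 106744555 to 106804998, reverse strand) are both on chromosome 4. Acot8 is on chromosome 2 from 164792765 to 164804882 on the reverse strand, and Acot9 is on chromosome X from 155262443 to 155297654 on the forward strand. Acot12 (from 91741512 to 91786148, forward strand) and Acot13 (from 24817948 to 24831540, reverse strand) are on chromosome 13.

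The stretches of 250 bases before the RefSeq start of Acot1 (chr12:84009252-84009501), Acot2 (chr12:83987611-83987860), Acot3 (chr12:84051894-84052143), Acot4 (chr12:84038129-84038378) and Acot11 (chr4:106805008-106805257, reverse strand) are shown because the neighbours on chromosome 12 moved together between WT mice and Acot11 moved the other way with diet. Coordinates are on GRCm38.p6, each sequence runs 5′ to 3′ on the strand of its gene, and the capitals mark every match on either strand to the CCAAT box (letters CCAAT), the E-box with letters CACGTG, the TATA box with letters TATAAA, the nuclear receptor hexamer with letters AGGTCA or the direct repeat with letters AGGNCANAGGNCA. Overlapping matches are marked as 1 stretch.
Acot1: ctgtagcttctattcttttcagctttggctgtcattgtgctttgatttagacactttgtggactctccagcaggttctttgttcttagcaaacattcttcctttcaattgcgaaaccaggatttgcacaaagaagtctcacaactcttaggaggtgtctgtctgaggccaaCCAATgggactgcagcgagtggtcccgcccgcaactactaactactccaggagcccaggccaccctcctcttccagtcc
Acot2: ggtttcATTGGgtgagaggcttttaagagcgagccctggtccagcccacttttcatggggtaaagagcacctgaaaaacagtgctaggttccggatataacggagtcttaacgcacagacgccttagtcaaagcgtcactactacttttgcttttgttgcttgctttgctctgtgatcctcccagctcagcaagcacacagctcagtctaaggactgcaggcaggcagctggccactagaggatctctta
Acot3: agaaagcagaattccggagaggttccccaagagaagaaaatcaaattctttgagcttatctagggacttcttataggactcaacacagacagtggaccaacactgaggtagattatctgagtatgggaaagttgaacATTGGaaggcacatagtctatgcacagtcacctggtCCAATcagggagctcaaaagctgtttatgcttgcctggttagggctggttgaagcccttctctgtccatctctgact
Acot4: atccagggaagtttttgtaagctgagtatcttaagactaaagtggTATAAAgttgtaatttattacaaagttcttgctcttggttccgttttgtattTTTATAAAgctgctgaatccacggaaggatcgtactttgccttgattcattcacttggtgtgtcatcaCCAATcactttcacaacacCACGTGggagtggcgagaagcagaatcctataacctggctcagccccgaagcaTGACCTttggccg
Acot11: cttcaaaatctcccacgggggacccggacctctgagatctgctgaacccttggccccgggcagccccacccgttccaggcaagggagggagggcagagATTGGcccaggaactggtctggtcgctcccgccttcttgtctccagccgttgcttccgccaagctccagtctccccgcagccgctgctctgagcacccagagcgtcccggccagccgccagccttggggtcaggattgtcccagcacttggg
A match to CCAAT stood in each of these 5 windows, and 33.8% of the 32536 windows of this length in the mouse RefSeq table hold one. The E-box CACGTG, the core to which clock factors bind, was found before Acot4, 66 bases from the start, in the second window of Acot11 (not shown), 154 bases from its start, and in 6.04% of all windows. The TATA box stood before Acot4 and Acot9 and in 12.3% of all windows. The hexamer was matched before Acot4 and Acot12 and in 14.0% of all windows. The direct repeat, the general form of the site bound by PPAR with RXR, stood in none of the 11 windows of the 9 members that have one and in 0.341% of all windows. A match describes letters in this stretch and not a used site.

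Per kb of exon, which allows levels of different genes to be set side by side, the order in WT lean liver ran from Acot13 with a mean of 1140.5 ± 222 normalized counts per kb (SD, n = 7), Acot1 with 1062 ± 328 and Acot12 with 932 ± 102 down to Acot9 with 6.66 ± 1.58. The ranges over mice of these first 3 genes overlapped in WT lean liver, as did those of Acot3, Acot2 and Acot4, which followed. Acot8 and Acot7 came next and also overlapped each other, at 198 ± 43.5 and 163 ± 34.6 per kb. Acot11, at 14.7 ± 4.69 per kb, lay below every mouse's Acot7 and overlapped the range of Acot9. In the obese groups Acot12 stood above Acot1, with 855 ± 153 against 423 ± 186 per kb in WT obese mice and 958 ± 172 against 424 ± 148 per kb in KO obese mice. When the longest transcript was used as gene length in place of all exons, Acot1 moved above Acot13 in both lean groups and Acot8 above Acot2 in the other 3 groups than WT lean.

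**Figure D1:**
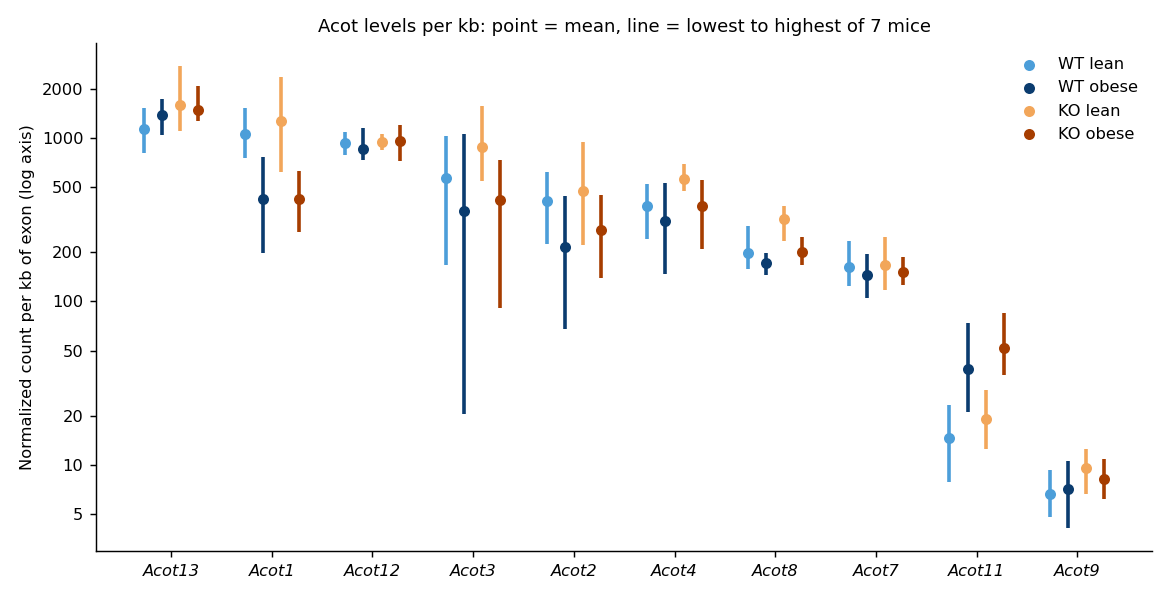
Normalized count per kb of exon (log axis) for the 10 Acot genes in WT lean, WT obese, KO lean and KO obese mice, with points for the means and lines from the lowest to the highest of 7 mice; WT and KO values come from separately normalized tables. Acot13, Acot1 and Acot12 lead in WT lean mice with means of 1140.5, 1062 and 932 per kb, and Acot11 and Acot9 lie below the other genes' means in all 4 groups.

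The count of Cmklr1 separated the genotypes as the labels say. It was 40.8 to 114 (median 62.0) in WT lean and 9.72 to 22.6 (median 10.7) in KO lean mice, and 33.3 to 102 (median 51.5) against 5.08 to 23.2 (median 14.2) in obese mice. In the RvE1 tables it was 46.1 to 148 (median 64.5) in WT and 6.77 to 16.3 (median 12.4) in KO mice given RvE1. Reads on listed genes ran from 15992525 to 43841120 per library. All 10 hepatocyte markers were listed, none was at 0 in any group, and their summed count ran from 1197890.0 to 2475440.0 over all mice and tables.

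The first comparison asked what the high fat diet changed in WT liver. Acot1 was lower and Acot11 higher in WT obese than in WT lean mice, and the other 8 members did not pass the test. Members passing therefore numbered 2 of 10, beside 6.27% of the 14012 genes tested (3.65% higher and 2.61% lower). Passing means an adjusted p under 0.1 by limma with Benjamini-Hochberg adjustment over all genes tested, the threshold the authors also used. With a fold change above 1.5 as well, the same count of 2 passed, beside 3.8% of genes. For no member did the WT groups lie wholly apart, which they did upward for 0.799% and downward for 0.564% of genes.

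Acot1, the cytosolic type I enzyme, had a normalized count of 2953 in the lowest mouse, 3552 in the median mouse and 5969 in the highest of 7 WT lean mice. In WT obese mice it was 772 in the lowest mouse, 1679 in the median mouse and 3008 in the highest. Of the 7 obese mice, 6 lay below every lean mouse, and the exception, mouse 6L, lay inside the lean range. The mean fell from 4160.4 ± 1284 to 1656 ± 729 (SD, n = 7 each; log2 fold change -1.39, SE 0.26, adjusted p = 0.00717).

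Acot11, known as a brown fat inducible thioesterase that limits energy use, was 47.5 in the lowest mouse, 85.1 in the median mouse and 140.2 in the highest of the WT lean mice. In WT obese mice it was 127 in the lowest mouse, 204 in the median mouse and 447 in the highest. Again 6 of the 7 obese mice lay outside the lean range, here above it, and only the lowest obese mouse, 27RL, lay within. The mean rose from 89.0 ± 28.4 to 235 ± 107 (log2 fold change 1.35, SE 0.26, adjusted p = 0.00787).

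The neighbours of Acot1 had lower medians in WT obese mice but were spread widely among them. Acot2, its mitochondrial relative, was 494 to 1362 (median 824) in WT lean and 149.9 to 973 (median 428) in WT obese mice, with 5 obese mice below the lean range (log2 fold change -1.05, SE 0.35, adjusted p = 0.122). Acot3, a peroxisomal enzyme for long-chain acyl-CoA, was 576 in the lowest mouse, 2081 in the median mouse and 3548 in the highest of the lean mice and 70.8 in the lowest mouse, 768 in the median mouse and 3654 in the highest of the obese mice. The obese group held the lowest mice and also the highest mouse of the table, so the groups overlapped from end to end (log2 fold change -1.52, SE 0.81, adjusted p = 0.336). Acot4, which also works in peroxisomes, was 1602 to 3479 (median 2653) in lean and 979.9 to 3559 (median 1696) in obese mice (log2 fold change -0.45, SE 0.31, adjusted p = 0.484).

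Each mouse identifier starts with a number, whose meaning the labels do not give, and Acot3 and Acot4 in WT obese mice lay apart by that number. The 3 obese mice numbered 6 had Acot3 counts from 1328 to 3654, the 3 numbered 27 from 70.8 to 768, and the single mouse numbered 22 had 174. For Acot4 the same sets gave 2708 to 3559, 979.9 to 1696 and 1109. Without the mice numbered 6, Acot1, Acot2, Acot3, Acot4 and Acot11 passed in WT liver, with a log2 fold change of -3.07 for Acot3 and -1.07 for Acot4. Leaving out the obese mice with the highest Acot3 and Acot4 counts lowers these fold changes by itself. Over the 7 fits that each left out 1 number, they ran from -3.07 to -0.38 for Acot3 and from -1.07 to 0.005 for Acot4. Acot1 and Acot11 passed in all 7 of these fits. In the diet tables each number occurs in 1 group only, and its part in these values was not tested.

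None of the remaining type II members passed in WT liver. Acot13, the thioesterase that binds phosphatidylcholine transfer protein, was 601 to 1129 (median 813) in lean and 775 to 1286 (median 1047) in obese mice (log2 fold change 0.29, SE 0.14, adjusted p = 0.277). Peroxisomal Acot8 was 315 to 578 (median 371) against 290.1 to 396 (median 346) (log2 fold change -0.19, SE 0.12, adjusted p = 0.458). The log2 fold changes of Acot12, a cytosolic acetyl-CoA thioesterase, of Acot7 and of Acot9 were -0.13 (95% interval -0.37 to 0.11), -0.17 (95% interval -0.50 to 0.15) and 0.07 (95% interval -0.40 to 0.55). Over the 10 members the median log2 fold change was -0.18, beside 0.00 over all genes tested.

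**Figure D2:**
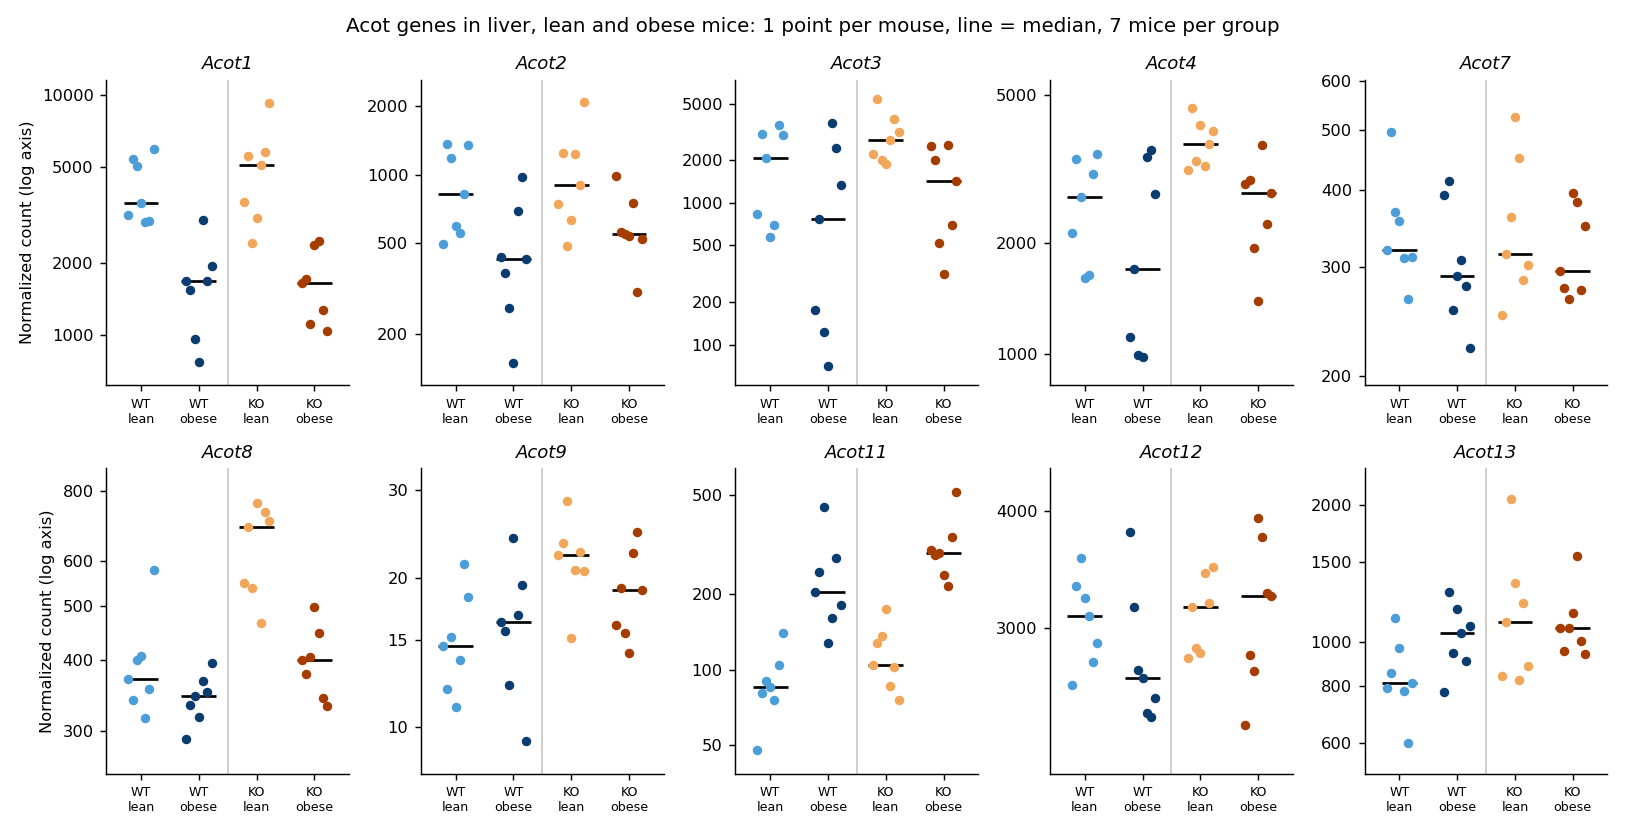
Normalized count (log axis) of each Acot gene, 1 point per mouse with a line at the group median, in lean and obese mice of both genotypes; WT and KO values come from separately normalized tables. Acot1 lies lower and Acot11 higher in the obese mice of both genotypes, and Acot3 in WT obese mice spreads from 70.8 to 3654.

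The same diet was then compared in mice without ChemR23. In KO obese against KO lean liver 6 of 10 members passed: Acot1, Acot2, Acot3, Acot4 and Acot8 were lower and Acot11 was higher. The background was larger here, since 24.1% of the 14213 genes tested passed (12.0% higher and 12.1% lower). With a fold change above 1.5 as well all 6 passed, beside 10.4% of genes. Under scaling to equal read totals the median over all genes moved to 0.14 log2 units, and the calls went from 1704 higher and 1718 lower to 2555 higher and 628 lower. Over the 10 members the median was -0.41, beside 0.00 over all genes.

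Acot1 was 2428 in the lowest mouse, 5136 in the median mouse and 9309 in the highest of 7 KO lean mice. It was 1037 in the lowest mouse, 1653 in the median mouse and 2473 in the highest of 7 KO obese mice. The groups met at 1 mouse, since the lowest lean mouse (20-2L) lay just under the highest obese mouse (31L). The mean fell from 4985 ± 2307 to 1664 ± 579 (SD, n = 7 each; log2 fold change -1.53, SE 0.27, adjusted p = 0.0042).

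Acot11 was 75.3 in the lowest mouse, 104 in the median mouse and 175 in the highest of the KO lean mice. In KO obese mice it was 216 in the lowest mouse, 292 in the median mouse and 515 in the highest. Every obese mouse lay above every lean mouse, which held in this direction for 0.985% of all genes tested. The mean rose from 115 ± 34.0 to 313 ± 97.8 (log2 fold change 1.43, SE 0.20, adjusted p = 0.00193).

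Acot8, which hydrolyses acyl-CoA of many chain lengths in peroxisomes, was 466 in the lowest mouse, 692 in the median mouse and 761 in the highest of the KO lean mice. It was 332 in the lowest mouse, 401 in the median mouse and 497 in the highest of the KO obese mice. Of the obese mice 6 lay below every lean mouse, and the means were 636 ± 115 and 401 ± 58.0 (log2 fold change -0.66, SE 0.13, adjusted p = 0.0064). Snx21, a sorting nexin gene on the opposite strand whose exons share 246 bases with those of Acot8, was also lower (log2 fold change -0.63, SE 0.15, adjusted p = 0.0154). Whether the counting used strand is not given in the sources used here, so reads of the shared stretch cannot be assigned to either gene.

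The other neighbours on chromosome 12 passed with wider errors. Acot4 was 3152 to 4636 (median 3702) in KO lean and 1388 to 3679 (median 2728) in KO obese mice, with 6 obese mice below the lean range (log2 fold change -0.60, SE 0.18, adjusted p = 0.0328). Acot3 was 1883 to 5393 (median 2775) against 312 to 2537 (median 1412), with 4 obese mice below the lean range (log2 fold change -1.36, SE 0.43, adjusted p = 0.0423). Acot2 was 485 to 2078 (median 902) against 305 to 987 (median 551), and only 1 obese mouse lay below the lean range (log2 fold change -0.72, SE 0.29, adjusted p = 0.0947). When mice of 1 identifier number were treated as a random block, Acot2 and Acot3 no longer passed (adjusted p = 0.217 and 0.113), and with libraries scaled to equal read totals Acot2 and Acot4 did not (adjusted p = 0.219 and 0.121). Acot3 also missed the threshold without the mice numbered 9 or 31, and Acot4 without those numbered 9. Of the 6 fits that each left out 1 number, Acot2 passed in 1. Acot2 passed in 5 of the 14 fits that left out 1 mouse and missed the threshold in the other 9, which left out KO obese 10RL, 10R, 23L, 31N or 31R or KO lean 14RL, 20R, 9L or 9RL.

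The remaining members did not pass in KO liver. Acot12 was 2785 to 3485 (median 3159) in KO lean and 2367 to 3934 (median 3247) in KO obese mice, a log2 fold change of 0.01 (95% interval -0.24 to 0.26). For Acot13, Acot7 and Acot9 the log2 fold changes were -0.04 (95% interval -0.43 to 0.34), -0.12 (95% interval -0.46 to 0.21) and -0.22 (95% interval -0.62 to 0.18).

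Markers of other cells moved in the same KO table. Of 9 Kupffer and myeloid markers tested (Adgre1 was not listed) 7 were lower in KO obese mice, and their summed count was 6497 to 9404 in KO obese against 11698 to 24707 in KO lean mice. Sinusoidal endothelial markers were lower for 4 of 8, lymphocyte markers for 4 of 7, stellate cell markers for 1 of 8 and erythroid markers for 1 of 3. Of 10 hepatocyte markers 1 was higher. Over all genes 12.0% were higher and 12.1% lower in this comparison. The part of these cells in the lower Acot counts was not tested, and in whole liver fewer cells of a type and less RNA per cell cannot be told apart. In WT liver none of the 9 Kupffer and myeloid markers passed, and their summed count was 4322 to 9599 in lean and 5168 to 8792 in obese mice.

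**Figure D3:**
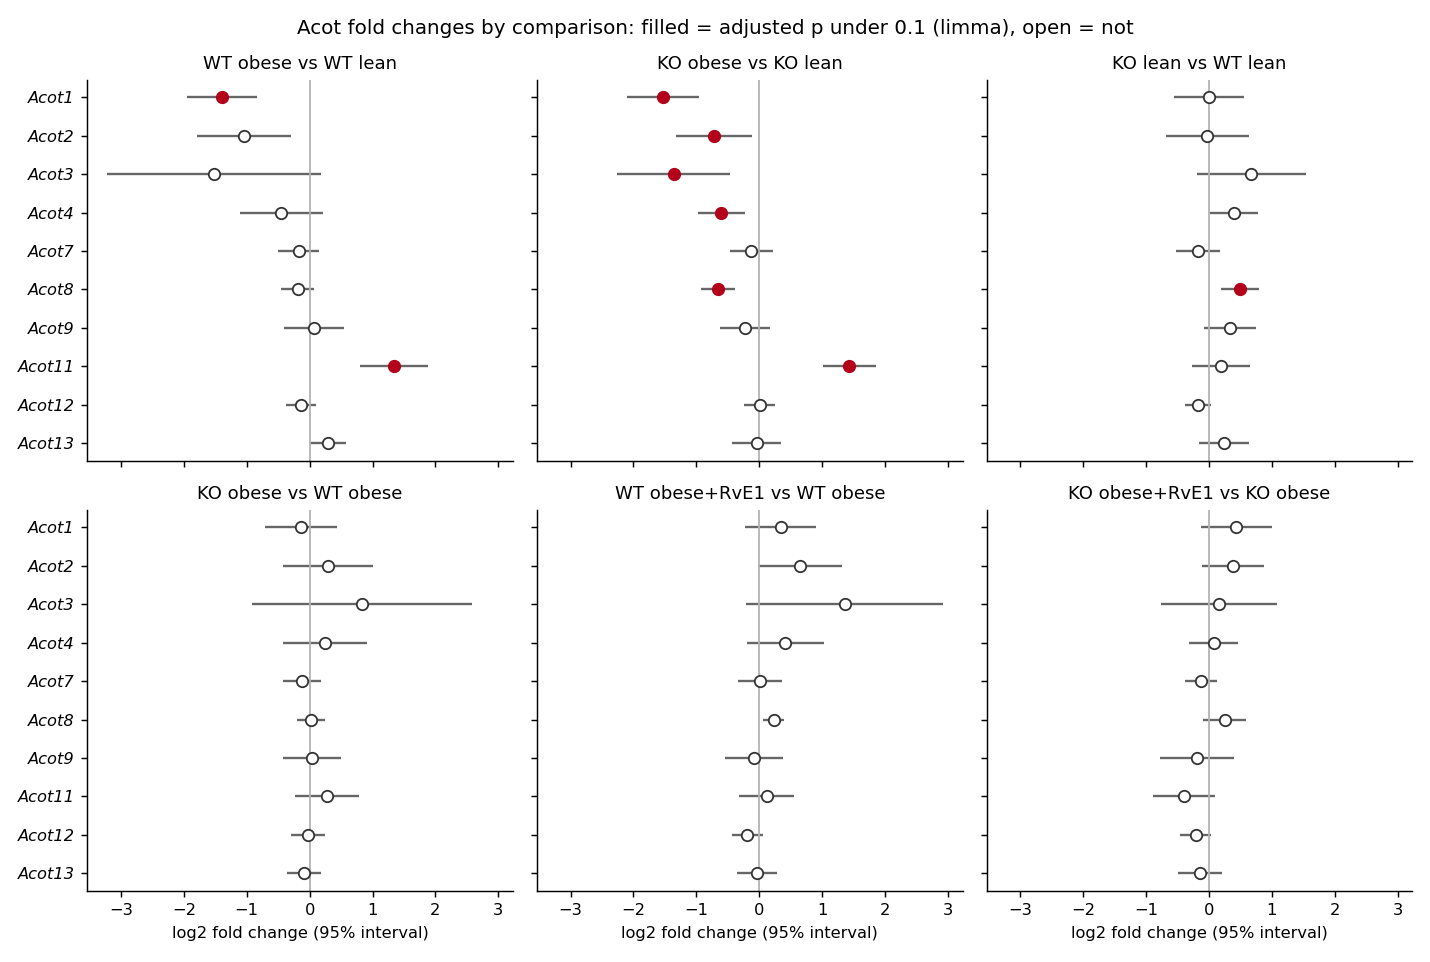
Log2 fold change of each Acot gene with its 95% interval in the 6 comparisons (limma, 7 mice per group), with filled points for genes at an adjusted p under 0.1. Filled points stand at Acot1 and Acot11 in WT liver, at 6 genes in KO liver on the diet and at Acot8 in KO lean against WT lean, and at no gene in the other 3 comparisons.

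The difference between the genotypes in their response to diet was tested as an interaction, KO minus WT. No member passed (0 of 10 by limma, edgeR and DESeq2), beside 0.00718% of 13924 genes by limma, 1 gene by edgeR and 926 genes by DESeq2. At an unadjusted p under 0.05 the count was 1, Acot8, whose log2 fold change was -0.19 in WT and -0.66 in KO liver (difference -0.47, SE 0.18, adjusted p = 0.171). Acot8 passed when libraries were weighted by quality (adjusted p = 0.0166), a setting in which 2563 genes passed, and when KO lean mouse 20R was left out. The differences of Acot1 and Acot11 were -0.14 (95% interval -0.96 to 0.68) and 0.08 (95% interval -0.61 to 0.78) log2 units. For Acot2, Acot3 and Acot4, of which none passed in WT and all passed in KO liver, the differences were 0.32 (95% interval -0.67 to 1.32), 0.16 (95% interval -1.85 to 2.17) and -0.16 (95% interval -0.94 to 0.63). These intervals are wide, and they show neither a different nor an equal response.

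Within groups, the chromosome 12 genes rose and fell together from mouse to mouse for all 6 pairs in WT and for 3 of 6 pairs in KO mice. Acot3 and Acot4 were most alike: after each group's mean was taken out, Pearson's r of their log2 counts over the 14 WT mice was 0.97 (Spearman's rho 0.97, adjusted permutation p = 1.20e-04 and 9.60e-04), and over the 14 KO mice it was 0.89 (rho 0.83, adjusted permutation p = 0.00117 and 0.00507). The permutations moved mice within groups 100000 times, were two-sided, with the lowest p above resting on the smallest value they can give, and were adjusted over 12 values, 6 pairs in each genotype. Without the 2 mice farthest from the median of Acot3, r was 0.97 in WT and 0.79 in KO mice. Within sets of mice that share an identifier number, r was 0.92 over 12 WT and 0.84 over 13 KO mice.

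Acot1 and Acot2 gave r = 0.84 in WT (rho 0.84, adjusted permutation p = 0.00266 and 0.00504) and 0.76 in KO mice (rho 0.69, adjusted permutation p = 0.00617 and 0.0188), and 0.77 and 0.54 without the 2 mice farthest from the median of Acot1. For this pair r was 0.96 in KO lean but 0.40 in KO obese mice, and 0.89 in WT lean and 0.81 in WT obese mice. Acot2 with Acot3, the other pair that passed in KO mice, gave r = 0.52 (rho 0.64, adjusted permutation p = 0.0449 and 0.017). All 6 pairs passed in WT mice, with r from 0.76 to 0.97 and from 0.59 to 0.97 without the 2 farthest mice. Mice that share an identifier number were not kept together in the permutations, and within numbers r in WT mice was 0.57 for Acot1 with Acot2, 0.63 for Acot1 with Acot3, 0.63 for Acot1 with Acot4, 0.71 for Acot2 with Acot3 and 0.80 for Acot2 with Acot4. In KO mice Acot1 with Acot3, Acot1 with Acot4 and Acot2 with Acot4 did not pass (r = 0.29, 0.15 and 0.34; rho 0.36, 0.20 and 0.44; adjusted permutation p = 0.309, 0.605 and 0.239 for r). Within identifier numbers these 3 pairs gave r = 0.64, 0.61 and 0.51. Whether the genotypes differ in these correlations was not tested.

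The sequences set a limit to such pairs. Of the windows of 50 bases along the longest transcript, 17.6% of those of Acot1 occur in Acot2 and 24.6% of those of Acot2 in Acot1. Of those of Acot3, 3.58% occur in Acot4 and 19.5% in any other transcript, 11.2% in Gm49366, and 1.97% of those of Acot4 occur in Acot3. Gm49366, a protein-coding gene on the same strand that was listed in none of the tables, shares 203 exon bases with Acot3 and 33 with Acot4. Read pairs from shared stretches may be counted for either gene. By the annotation, exons of Acot3 and Acot4 also overlap 4732463B04Rik on the opposite strand (312 and 615 bases), those of Acot11 overlap Fam151a (754 bases) and those of Acot12 overlap 4833422C13Rik (149 bases). Acot9 shares 20.2% of its windows with Acot10, its near-copy on chromosome 15. Read in the same direction, windows of Acot7, Acot8, Acot11, Acot12 and Acot13 occur in no other transcript. Windows were not compared with the reverse strand, so they leave out the overlaps of Acot8 (246 bases with Snx21), Acot11 and Acot12 with genes on the opposite strand.

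**Figure D4:**
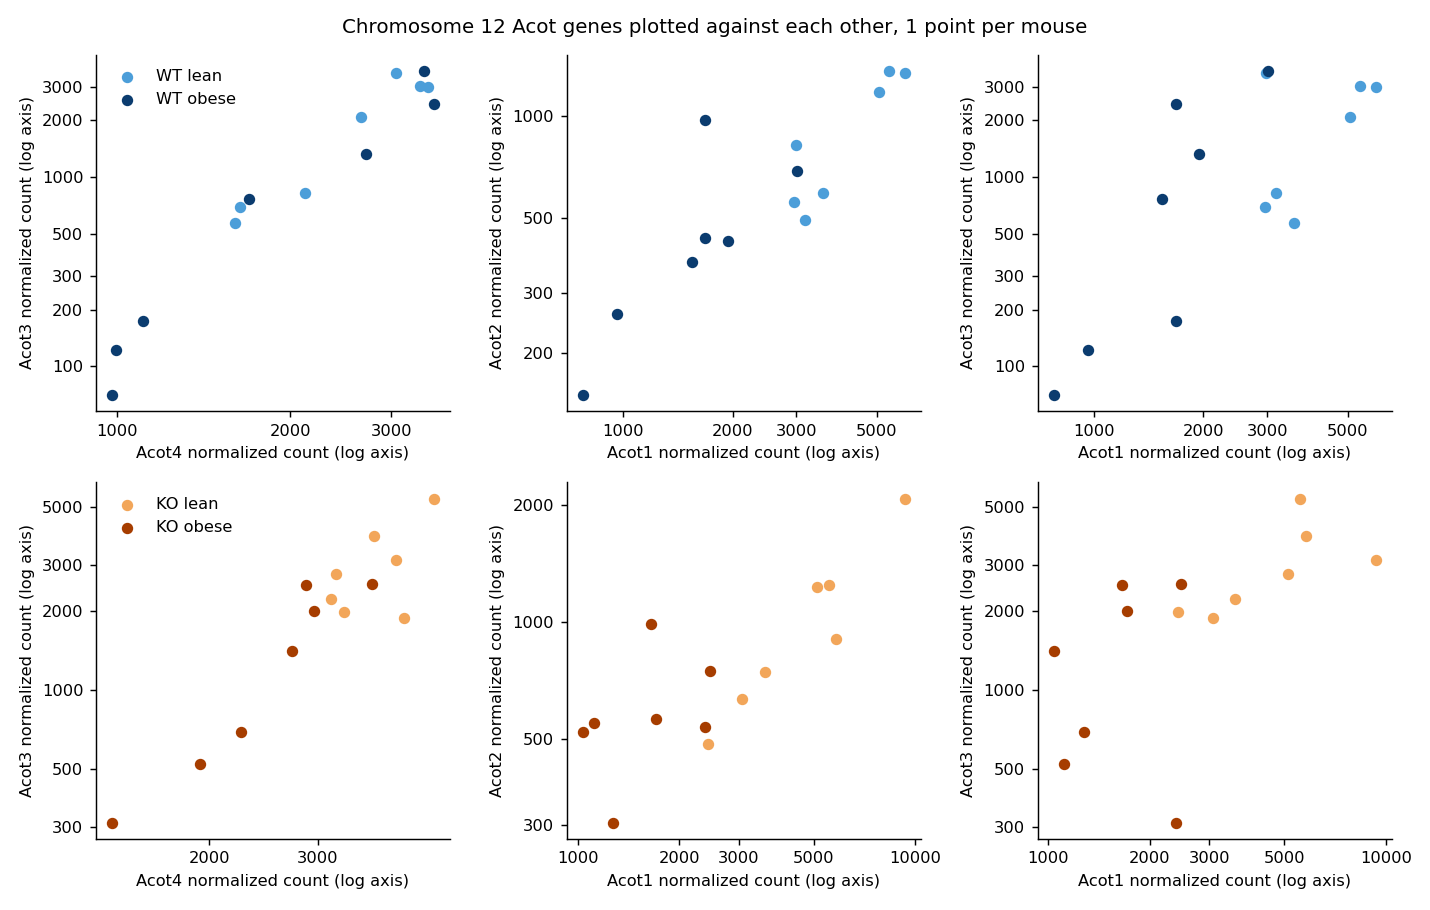
Normalized counts of chromosome 12 Acot genes against each other (log axes), 1 point per mouse, with WT mice in the upper and KO mice in the lower row. Acot3 against Acot4 falls along a line in WT mice (r = 0.97 within groups), and Acot3 against Acot1 scatters in KO mice (r = 0.29).

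As a description, the genes whose log2 counts ran most like each passing member over the 14 mice of both diet tables were named by their mean Pearson r over 13923 genes. For Acot3 and Acot4 the nearest gene was the other of the pair, with a mean r of 0.95, and Acot3 was followed by Acot5 (0.86) and Crat (0.84), the carnitine acetyltransferase. Acot1 ran most like Wrnip1 (0.93), Cyp4a31 (0.92) and Cyp4a10 (0.91), the latter pair being fatty acid omega-hydroxylases. Acot2 ran with Retsat (0.90), a retinol saturase, Crat (0.89) and Elmod3 (0.88), and Acot4 after Acot3 with D130043K22Rik (0.84) and Ctf1 (0.82). Acot8 ran with Pisd (0.89), Pex19 (0.87), a peroxisome assembly factor, and Ppp2r4 (0.86). Acot11 ran with Slc47a1 (0.90), an organic cation exporter, Kdelc2 (0.89) and Trim11 (0.88). Group differences and library depth are shared by all these values. Acot5 also shares 14.1% of its windows of 50 bases with Acot3.

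Loss of ChemR23 was compared within each diet. In lean liver 1 of 10 members passed, Acot8, beside 16.3% of the 13031 genes tested (8.0% higher and 8.3% lower). Acot8 was 329 in the lowest mouse, 386 in the median mouse and 601 in the highest of the WT lean mice. In KO lean mice it was 424 in the lowest mouse, 629 in the median mouse and 690.3 in the highest. Of the KO mice 4 lay above every WT mouse, and all 7 lay above the WT median (log2 fold change 0.49, SE 0.14, adjusted p = 0.0536).

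With a fold change above 1.5 as well 0 members passed, beside 6.65% of genes, and for no member did the groups lie wholly apart, beside 0.322% of genes upward and 0.422% downward. The Acot8 difference stood close to the threshold. It was lost with the identifier number as a block (adjusted p = 0.152), with equal read totals (adjusted p = 0.138), and when KO lean 14RL, 20L or 9L or WT lean 21L or 26R was left out. Leaving out all mice numbered 9, 21 or 26 also lost it. Snx21 on the other strand was 239 to 319 (median 275) in WT lean and 263 to 536 (median 356) in KO lean mice (log2 fold change 0.35, SE 0.15, adjusted p = 0.136). Among the same mice, 8 of 9 Kupffer and myeloid markers were higher in KO mice, with summed counts of 10615 to 22404 against 4516 to 9984. Lymphocyte markers were higher for 2 of 4, while 1 of 8 stellate cell and 1 of 5 cholangiocyte markers were lower. Over all genes 8.0% were higher and 8.3% lower. The part of these cells in the Acot8 value was not tested.

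No other member passed in lean liver. Under equal read totals the median over all genes moved to -0.12 log2 units here, and the calls went from 1042 higher and 1081 lower to 392 higher and 1753 lower. Acot4 was 1669.9 to 3618 (median 2757) in WT and 2864 to 4209 (median 3359.9) in KO lean mice, all 7 above the WT median (log2 fold change 0.40, SE 0.18, adjusted p = 0.162). Acot12 lay below the WT median in all 7 KO lean mice, at 2531 to 3162 (median 2868) against 2712 to 3699.7 (median 3232) (log2 fold change -0.17, SE 0.10, adjusted p = 0.255). Acot1 and Acot2 had log2 fold changes of -0.00 (95% interval -0.56 to 0.55) and -0.03 (95% interval -0.68 to 0.63). For Acot3, Acot7, Acot9, Acot11 and Acot13 they were 0.67, -0.18, 0.33, 0.19 and 0.24. With libraries weighted by quality, Acot3, Acot4, Acot8 and Acot9 passed as higher and Acot7 as lower. In that setting 4297 of the 13031 genes tested passed, against 2123 in the main fit.

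In obese liver no member passed between KO and WT (0 of 10 by limma, edgeR and DESeq2, and 0 at an unadjusted p under 0.05), beside 0.0141% of the 14162 genes tested. Acot1 was 849.7 to 3329 (median 1841) in WT obese and 997 to 2367 (median 1609.9) in KO obese mice, a log2 fold change of -0.14 (95% interval -0.71 to 0.44). Acot11 was 139.9 to 494 (median 224) against 207 to 495 (median 283), a log2 fold change of 0.28 (95% interval -0.24 to 0.79). Acot8, at 0.03 (95% interval -0.20 to 0.25), had the narrowest interval of the 10, and Acot3, at 0.84 (95% interval -0.91 to 2.58), the widest.

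RvE1 was compared with vehicle in obese mice of each genotype, and no member passed in either. In WT obese mice this was 0 of 10 by limma, edgeR and DESeq2, beside 0.0% of the 13085 genes tested by limma (1 gene by edgeR and 25 by DESeq2), and 1 member stood at an unadjusted p under 0.05. That member was Acot8, which was 340.1 in the lowest mouse, 409 in the median mouse and 464 in the highest of the vehicle mice and 422 in the lowest mouse, 482 in the median mouse and 491 in the highest of the RvE1 mice. Of the treated mice 5 lay above every vehicle mouse and all 7 above the vehicle median, with a log2 fold change of 0.23 (95% interval 0.05 to 0.40) (adjusted p = 0.772).

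Acot3 and Acot2 ran over a narrower range in WT mice given RvE1 than in vehicle mice. So did Acot1, Acot4, Acot8, Acot9, Acot11 and Acot12, while Acot7 and Acot13 ran over a wider one. Acot3 was 83.0 in the lowest mouse, 901 in the median mouse and 4313 in the highest of the vehicle mice. After RvE1 it was 1048 in the lowest mouse, 1599 in the median mouse and 2462 in the highest. All 7 treated mice lay above the vehicle median but below the highest vehicle mouse, and the log2 fold change was 1.36 (95% interval -0.22 to 2.93) (adjusted p = 0.879). Acot2 was likewise 176 to 1140.1 (median 503) with vehicle and 517 to 995 (median 765) with RvE1, a log2 fold change of 0.65 (95% interval -0.02 to 1.31) (adjusted p = 0.841). For Acot1 and Acot4 the log2 fold changes were 0.34 (95% interval -0.22 to 0.90) and 0.41 (95% interval -0.20 to 1.03). The difference in spread itself was not tested. The 3 vehicle mice numbered 6 held the highest vehicle counts of Acot3 (1558 to 4313) and Acot4 (3177 to 4169). Leaving out the highest vehicle mice raises a fold change by itself. Without them both genes passed as higher after RvE1, with log2 fold changes of 2.91 and 1.04. Over the 5 fits that each left out 1 number, the log2 fold change ran from 0.21 to 2.91 for Acot3 and from -0.04 to 1.04 for Acot4.

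Acot11, higher with the diet, was 149 to 528 (median 239) in WT vehicle and 245 to 317 (median 281) in WT RvE1 mice, a log2 fold change of 0.12 (95% interval -0.32 to 0.56). In KO mice it was 217 to 519 (median 295) with vehicle and 125 to 352 (median 224) with RvE1, where 3 treated mice lay below every vehicle mouse (log2 fold change -0.40 (95% interval -0.89 to 0.10), adjusted p = 0.623). Acot12 had log2 fold changes of -0.19 (95% interval -0.43 to 0.06) in WT and -0.21 (95% interval -0.46 to 0.03) in KO mice. Those of Acot7, Acot9 and Acot13 were 0.01, -0.08 and -0.04 in WT and -0.12, -0.19 and -0.15 in KO mice.

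In KO obese mice no member passed with RvE1 either (0 of 10 by limma, edgeR and DESeq2, and 0 at an unadjusted p under 0.05), beside 0.0% of the 14207 genes tested by limma (0 genes by edgeR and 17 by DESeq2). Acot1 was 1046 to 2482 (median 1685) with vehicle and 1374 to 4138 (median 1968) with RvE1, with 2 treated mice above every vehicle mouse (log2 fold change 0.43 (95% interval -0.14 to 0.99), adjusted p = 0.642). Acot3 was 315 to 2573 (median 1425) against 635 to 1995 (median 1214), a log2 fold change of 0.16 (95% interval -0.76 to 1.07). Those of Acot2, Acot4 and Acot8 were 0.38 (95% interval -0.11 to 0.87), 0.07 (95% interval -0.31 to 0.46) and 0.25 (95% interval -0.09 to 0.59). The interaction of RvE1 with genotype passed for 0 members by limma, edgeR and DESeq2 and for 0 at an unadjusted p under 0.05, beside 0.0% of 13059 genes. The difference between the genotypes, KO minus WT, was -1.20 (95% interval -3.08 to 0.68) log2 units for Acot3 and -0.51 (95% interval -1.18 to 0.15) for Acot11.

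**Figure D5:**
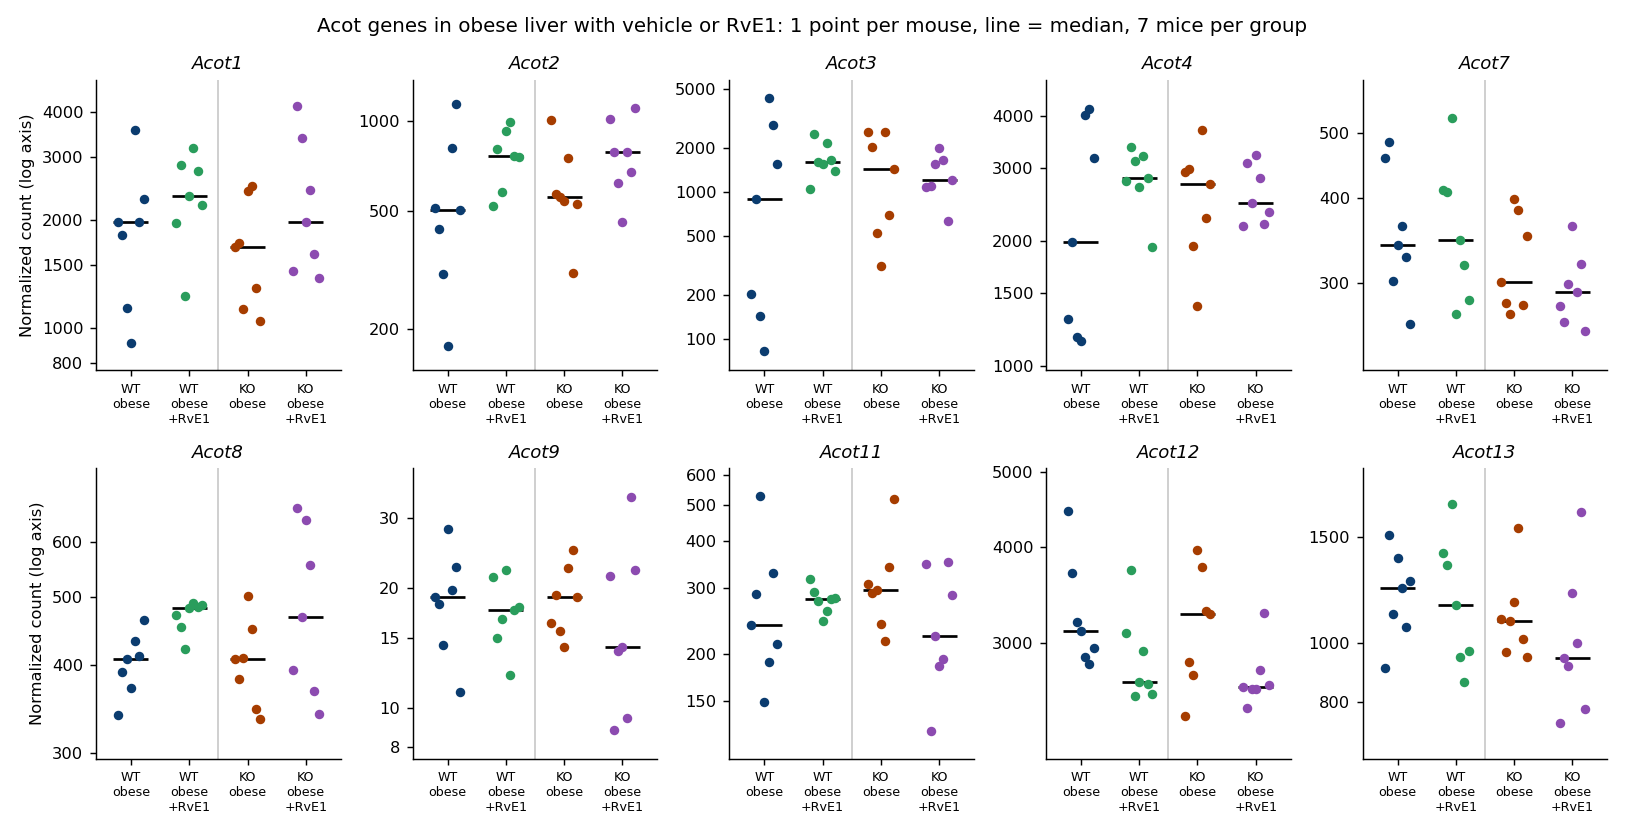
Normalized count (log axis) of each Acot gene in obese mice given vehicle or RvE1, 1 point per mouse with a line at the group median, in tables normalized separately for WT and KO. Acot3 runs from 83.0 to 4313 in WT vehicle mice and from 1048 to 2462 in WT RvE1 mice.

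Relatives outside the 10 members, which were listed for comparison, included Acot5, another peroxisomal type I gene of the same cluster. In KO liver every obese mouse had a lower Acot5 count than every lean mouse, at 8.23 to 22.2 (median 14.5) against 22.6 to 29.0 (median 26.9) (log2 fold change -0.85, SE 0.22, adjusted p = 0.0204), which held in this direction for 1.11% of genes. In WT liver it was 2.40 to 26.5 (median 5.58) against 6.08 to 27.7 (median 21.0) (log2 fold change -0.95, SE 0.50, adjusted p = 0.333). Of the windows of 50 bases along Acot5, 22.8% occur in other transcripts, 14.1% in Acot3 and 13.75% in Acot1, whose counts are far higher. Read pairs from these stretches may be counted for either gene, and their part in the Acot5 values was not tested. Among the 9 tested thioesterases that are no members, 1 was higher in WT obese mice (Hibch), and in KO obese mice 1 was higher (Ppt1, log2 fold change 0.35, adjusted p = 0.0354) and 3 were lower (Them4, -0.79, adjusted p = 0.0119, Acot5 and Ppt2). Over all genes 6.27% passed in WT liver and 24.1% in KO liver (12.0% higher and 12.1% lower), so the count of 1 higher in KO liver is near the background.

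Acyl-CoA synthetases, which run the opposite reaction, passed in both directions. Of 18 tested, 2 were higher and 3 lower in WT obese mice, while in KO obese mice 4 rose and 1 fell, beside 6.27% of all genes passing in WT and 24.1% in KO liver, so that the KO count is near the background. They had median log2 fold changes of 0.04 and 0.04. Medium-chain Acsm5 and Acsm3 were higher in both genotypes, at 0.68, adjusted p = 0.00121 and 0.52, adjusted p = 0.066 in WT and 0.72, adjusted p = 0.00933 and 0.71, adjusted p = 0.00233 in KO mice. Acsl5, which activates long-chain fatty acids, was lower in WT obese mice (-0.60, adjusted p = 0.0332). Of 13 genes of coenzyme A synthesis and breakdown, 0 passed in WT and 3 in KO mice, a share near that of all genes in KO liver, where Nudt7, the peroxisomal CoA hydrolase, was lower (-0.79, adjusted p = 0.0318).

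Genes known as PPAR alpha targets were lower with the diet more often than higher. Of 30 tested, 9 were lower and 1 was higher (Fitm1) in WT obese mice, where 2.61% of all genes were lower. The list's median was -0.34 log2 units in WT mice. In KO obese mice 14 were lower and 0 higher, where 12.1% of all genes were lower, and the median was -0.42, beside 0.00 over all genes in each. They included the omega-hydroxylase Cyp4a12b (-1.88, adjusted p = 0.00166 in WT and -1.96, adjusted p = 0.00601 in KO) and Ehhadh, an enzyme of peroxisomal beta oxidation (-1.48, adjusted p = 0.00295 and -1.81, adjusted p = 0.0084). Of 12 genes of PPARs and proteins that work with them, 1 was higher and 0 lower in WT obese mice. In KO obese mice 3 were higher and 1 lower, beside 6.27% of all genes passing in WT and 24.1% in KO liver. Ppara, the gene of PPAR alpha, passed in neither. Pparg, which encodes PPAR gamma, was higher in both (1.62, adjusted p = 0.0312 and 2.05, adjusted p = 0.00444). In lean liver 4 of 29 of the PPAR alpha targets were higher in KO than in WT mice and 0 lower, beside 8.0% and 8.3% of all genes.

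Peroxisomal beta oxidation genes other than the thioesterases were lower for 2 of 19 in WT and for 4 of 19 in KO obese mice, where 2 were higher. In the mitochondrial list 1 of 21 was lower in WT obese mice, Crat at -1.21, adjusted p = 0.0357, and 1 higher, while 5 were lower and 1 higher in KO obese mice. Core clock genes, which include factors that bind the E-box, were higher for 3 and lower for 2 of 18 in WT obese mice and higher for 6 and lower for 1 in KO obese mice. Beside these counts, 3.65% of all genes were higher and 2.61% lower in WT liver, and 12.0% higher and 12.1% lower in KO liver. In KO liver the lower genes of both oxidation lists stood above the 12.1% share, but on few genes, and this difference was not tested.

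Between KO lean and WT lean mice, where 16.3% of all genes passed, the pathway lists gave counts near or below that share. Besides the PPAR alpha targets, led by Fabp2 (1.19, adjusted p = 0.0393) and Fabp1 (0.81, adjusted p = 0.0661), which carry fatty acids in the cell, 1 of 9 other thioesterases was higher (Baat, the bile acid conjugating enzyme, 0.41, adjusted p = 0.0773). Of 18 acyl-CoA synthetases 2 were lower, Acsl5 (-0.41, adjusted p = 0.0577) and Acsl3 (-0.56, adjusted p = 0.0747), and of 18 clock genes 3 were lower. Between KO obese and WT obese mice, in both RvE1 comparisons and in both interactions, no gene of these lists passed.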

How the data were processed

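Whole liver RNA of 42 mice, 7 per group, was sequenced as paired-end reads. The authors checked reads with FastQC, aligned them to mm10 with Bowtie2, counted pairs per gene with featureCounts (option -B) and ran DESeq2 per comparison, with versions, annotation and strand setting not given in the sources used here. The deposited values are a signal, read counts divided by the size factors of each table's 14 libraries, beside the authors' own fold changes and p-values, which were not used. Reads recovered from the steps came out whole within 0.1 reads for 100.0% of values, and a library gave the same reads in every table. Depth ran from 15992525 to 43841120 reads on listed genes, with a median of 24298289.

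Here limma 3.58.1 in R 4.3.3 (lmFit and eBayes with trend, two-sided) was run on log2(normalized count + 1) for genes with a mean of at least 5, with Benjamini-Hochberg adjustment over all genes tested and a threshold of 0.1. Fold changes are on that scale, which understates low genes. Interactions took each genotype's values from its own table. Alternatives were pseudocounts of 0.5 and 4, no filter, TMM scaling, equal read totals, library quality weights, the identifier number as random effect, edgeR 4.0.16 and DESeq2 1.42.0 on the recovered reads, and leaving out each mouse or number. On simulated data the limma fit recovered 86.5% to 92.5% of 200 genes changed 2-fold in the 6 comparisons. These genes were changed together and drawn only from genes well above the filter, with mice simulated as independent. The share therefore does not carry over to genes as low as Acot9 or to comparisons where few genes passed. The members and lists were chosen with earlier results of these data known. All 10 members were named in every comparison, from each other list at most 4 passing genes with the smallest adjusted p, and for each passing member the 3 genes most like it. Date-like gene names, 20 to 26 per table, were left as listed. Gene positions came from GENCODE M21 and promoter windows from RefSeq on GRCm38.p6, in which 9 of 10 members were matched and Acot13 was not.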

Additional observations from a re-analysis of the deposited data

Results flagged for a closer look

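In 5 of the 60 groups of 7 mice, 1 for each member in each group, the end mouse stood apart by more than 0.568 of the group's range, a gap that chance gives in about 5% of groups. Acot8 was 578 in WT lean mouse 8RL, and the next WT lean mouse had 408. Acot11 was 515 in KO obese mouse 31R, followed by 338. Acot12 was 3286 in KO obese+RvE1 mouse 23-2L, followed by 2774. Acot13 was 2057 in KO lean mouse 20-2L, followed by 1346, and 1548 in KO obese mouse 31L, followed by 1159. All values are normalized counts.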

How the results depend on the processing

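The number of members passing in KO lean against WT lean was 1 and went to 0 with equal read totals, to 0 with the identifier number as random block, to 0 at an adjusted p under 0.05, to 0 with a fold change above 1.5 as well and to 5 with library quality weights. In the diet interaction it went from 0 to 1 with quality weights. Leaving out 1 mouse or all mice of 1 identifier number gave 2 to 5 members in WT obese against WT lean (5 without number 6, where Acot2, Acot3 and Acot4 joined, and 3 without WT obese mouse 6R, where Acot2 joined), 3 to 6 in KO obese against KO lean (3 without number 9), 0 to 3 in KO lean against WT lean (3 without number 8), 0 to 2 with RvE1 in WT mice (2 without number 6) and 0 to 1 in the diet interaction. DESeq2 passed 3 members in WT obese against WT lean, with Acot2 at an adjusted p of 0.0761. No result changed direction among those that passed, and of the counts of members 265 values stayed within 1.5 times and 22 did not.

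Counts over all genes moved more. With DESeq2 1367 genes passed in WT obese against WT lean (878 by limma) and 926 in the diet interaction (1 by limma). With the block the counts were 279, 1057 and 3 in WT diet, KO diet and KO lean against WT lean (878, 3422 and 2123 without), and with quality weights 1605, 5737 and 4297, and 2563 in the diet interaction. Equal totals gave 510 in WT diet. No paired analysis was possible because the labels give no replicate numbers and the compared groups share at most 1 identifier number (23, in KO obese and KO obese+RvE1). Mice of 1 identifier number had consensus correlations of 0.0643 to 0.373 across the comparisons. The causes were not tested. Depth limits Acot9 and Acot5, whose counts are lowest.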
